A study of Mus musculus with 6 samples.

Results

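The cadherins and protocadherins are surface proteins through which cells hold to and recognise one another, and their messages were read here in 2 groups of cortical cells of the mouse. Members were taken as the probe sets (groups of probes for a transcript) that name exactly 1 gene in the platform's probe-to-gene table, with a symbol made of Cdh and digits or starting with Pcdh. That gave 101 probe sets for 56 genes, of 45037 non-control probe sets on the array, 34945 of which name 1 gene. The RNA came from translating ribosome affinity purification (TRAP), in which a transgene carries a tagged ribosomal protein and the tag pulls down ribosomes with the messages on them. The Glt25d2 group was line DU9 and the S100a10 group line ES691, each with 3 biological replicates from the cortex of BAC transgenic mice (the transgene is a bacterial artificial chromosome holding the control regions of the driver gene). Glt25d2 is the older name of Colgalt2. Both lines had been backcrossed onto C57BL/6 for 3 to 5 generations from FVB and had no treatment, and the age, the sex and the number of animals behind a replicate are not given in the sources used here. In each group every cell in which the BAC was active gave RNA, and the series text says that the S100a10 BAC also labels some cells that are not neurons.

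Classical cadherins bind the same cadherin on a neighbouring cell in a calcium-dependent way and are tied to the actin skeleton inside by catenins. Type I members, such as N-cadherin (Cdh2) and E-cadherin (Cdh1), and type II members, such as Cdh6 to Cdh11, differ in the pocket by which they bind, and combinations of them mark layers, areas and synapses of the cortex. Cdh13 (T-cadherin) has no stretch inside the cell and is held by a lipid anchor. The delta protocadherins (Pcdh1, Pcdh7 to Pcdh11x and Pcdh17 to Pcdh19) are solitary genes, some of which recruit the WAVE complex that builds branched actin. The clustered protocadherins (Pcdha, Pcdhb and Pcdhg) lie in tandem, and each neuron turns on its own small choice of them, by which it tells its own branches from those of other cells.

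The deposited values were GCRMA intensities on a linear scale, and the median intensity of an array was 20.4 to 21.3 in Glt25d2 and 35.5 to 35.8 in S100a10. The median log2 difference, S100a10 minus Glt25d2, over all kept probe sets was 0.55 as deposited and -0.06 after quantile normalization (which gives all arrays the same distribution), and for the members that passed in every fit the difference is also given relative to that median. Probe sets were tested where the mean of at least 1 group was 50 or more, the limit that the series text proposes. Of 6 listed pyramidal neuron markers 5 were kept, with summed intensities of 6548 to 9010 in Glt25d2 and 11321.5 to 11855 in S100a10. Of these, Slc17a7 and Neurod6 were higher in S100a10 and none was lower as deposited, and Camk2a was lower after quantile normalization (-0.88). Fewer cells of a type and less RNA per cell cannot be told apart in such samples.

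In Glt25d2 replicate 3 most cadherin and protocadherin probe sets read far lower than in Glt25d2 replicates 1 and 2. Of 46 member probe sets that averaged at least 50 in replicates 1 and 2, 28 (60.9%) were more than 4-fold lower in replicate 3, with a median log2 deviation of -2.32. Over all 18235 such probe sets, 8.80% were that low and the median deviation was 0.12. With each array set against the mean of the other 2 of its group, 30 of the 51 kept members were more than 4-fold lower in that array and 0 were in each of the other 5 arrays. Results of members and lists that turn on that array are mostly given with and without it. The cause of its low values was not tested.

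The low values were seen in most subfamilies, and 18 of the 46 probe sets were not more than 4-fold lower. Among clustered protocadherins 9 of 10 were more than 4-fold lower in Glt25d2 replicate 3, and the lowest was Pcdhb9, which read 1288 and 1458 in replicates 1 and 2 and 30.2 in replicate 3, 45.4-fold lower. Type II classical cadherins had 8 of 12 that low, delta protocadherins 7 of 16, type I cadherins 2 of 4, Cdh13 2 of 3 and Pcdh20 0 of 1. The probe sets with no lower value there were Cdh15 (84.4, 84.4 and 87.0), Pcdh18 (97.5 on each array), 1 probe set of Cdh13 (52.1 on each array) and 2 of the 3 probe sets of Cdh7. Values that repeat between arrays, as for the first 3 of these, were seen on at least 2 Glt25d2 arrays in 8 of the 51 kept members.

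None of the listed catenin, WAVE and clustered protocadherin regulator genes was more than 4-fold lower in that array, whereas other lists had genes that low. Of the catenins and their partners 0 of 8 were more than 4-fold lower in Glt25d2 replicate 3 (median log2 deviation 0.09), as were 0 of 7 WAVE complex genes (0.20) and 0 of 12 regulators and effectors of clustered protocadherins (0.28), such as Ctcf and the cohesin subunit Rad21, where the cohesin subunit Smc1a was lowest (-1.85). Other members of the cadherin superfamily had 7 of 8 that low, with a median of -2.76. Of the proteases that cut cadherins and their regulators 1 of 2 was that low, with a median of -2.01. Clstn1 (calsyntenin 1) for example read 11004, 9029.5 and 607 in the Glt25d2 arrays. Among marker lists, 5 of 8 astrocyte, 4 of 8 interneuron, 3 of 5 endothelial and 2 of 7 oligodendrocyte genes were more than 4-fold lower there. So were 1 of 4 oligodendrocyte precursor, 1 of 3 meningeal fibroblast and 1 of 2 microglial genes. The counts were 0 of 6 for subcerebral layer 5 neurons, 0 of 5 for pyramidal neurons, 0 of 3 for mural cells and 0 of 1 for ependyma and choroid plexus. Over all genes, 986 of 10420 were more than 4-fold lower there.

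**Figure D1:**
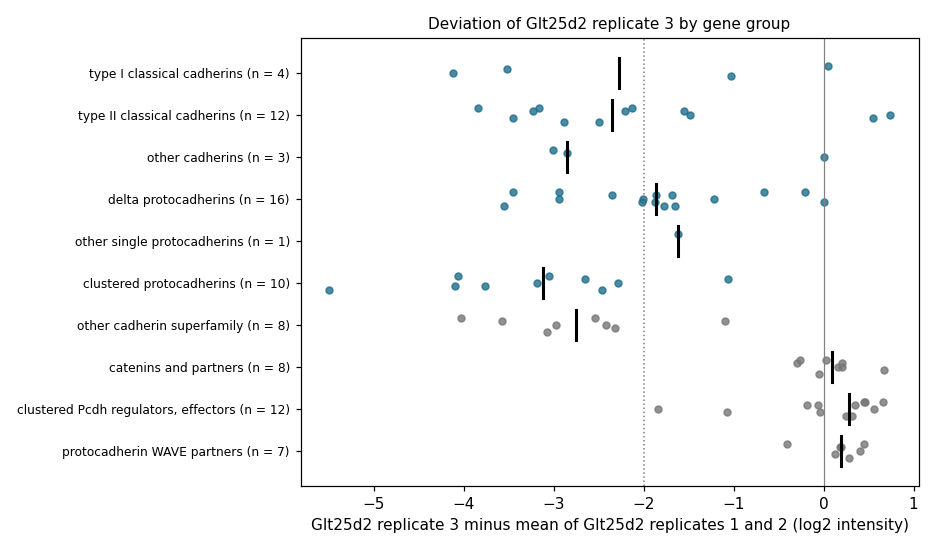
Each point is a probe set of a member subfamily (blue) or a gene of a related list (grey), placed at the log2 intensity of Glt25d2 replicate 3 minus the mean of replicates 1 and 2, black bars are medians and the dotted line marks a 4-fold lower value. The median is -3.12 for the clustered protocadherins and 0.09 for the catenins and their partners.

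Of the 101 member probe sets 51 were kept, for 32 of the 56 genes. They hold 4 of 5 type I genes, 7 of 11 type II genes, 8 of 9 delta protocadherin genes, 11 of 23 clustered protocadherin genes, Cdh13 and Pcdh20. Both group means reached 50 for 43 of the 51, whereas 6 were kept through S100a10 only and 2 through Glt25d2 only, so that these 8 had to differ to some extent. Of the 50 left out, 49 read under 50 on every array, and the last is a further probe set of Cdh8, with 52.7 on 1 array. The genes with no kept probe set included Cdh5 (VE-cadherin) and Pcdh12, both known from endothelial cells, and Cdh5 read at most 37.3 on any array. Low values do not show that these genes are silent.

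The plot of member intensities gives 1 probe set for each of the 32 genes.

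**Figure D2:**
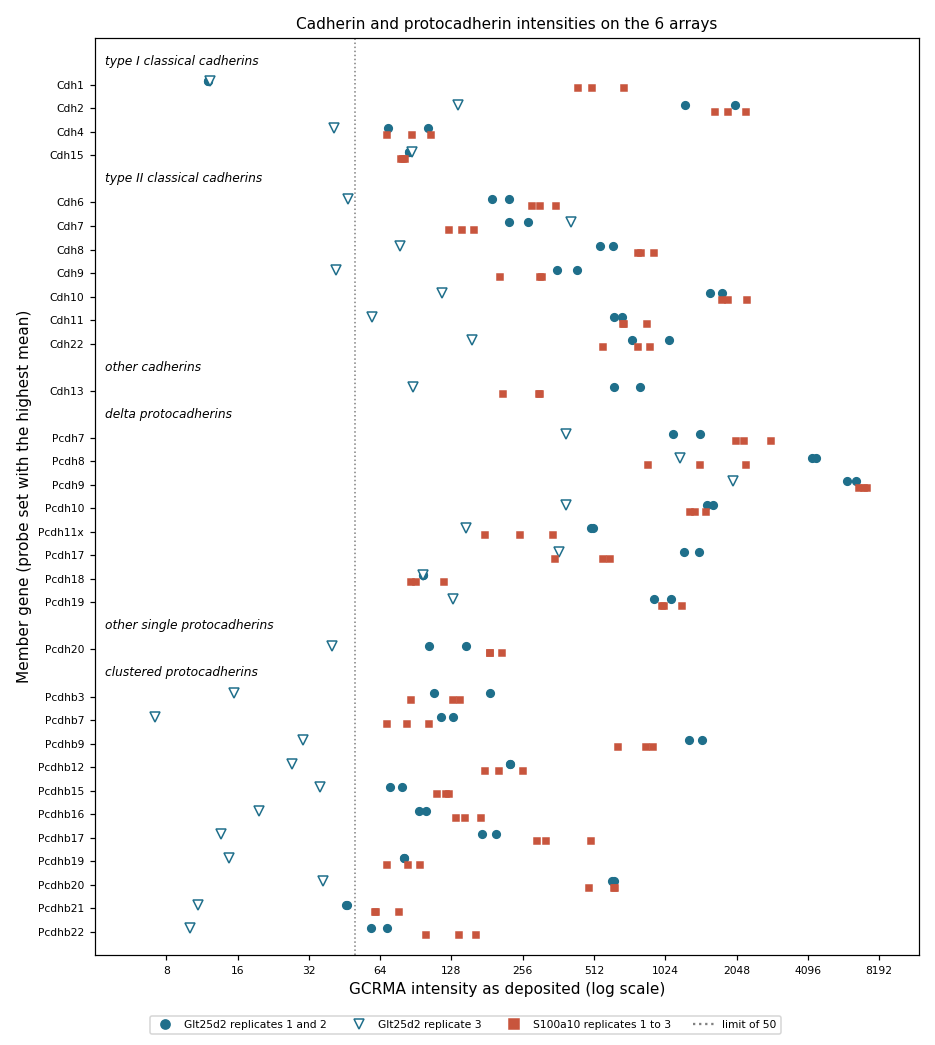
Deposited GCRMA intensity (log axis) of the brightest kept probe set of each of 32 member genes, with Glt25d2 replicates 1 and 2 as filled circles, Glt25d2 replicate 3 as open triangles and the 3 S100a10 arrays as squares. The triangle lies left of both circles for most genes, and Cdh1 is the gene whose groups lie farthest apart.

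As deposited, 5 member probe sets were higher and 3 lower in S100a10 at an adjusted p under 0.05, beside 44.2% higher and 4.39% lower of all 21291 kept probe sets. After quantile normalization 2 were higher and 7 lower, beside 16.8% and 19.4%. Without Glt25d2 replicate 3 the counts were 15 higher and 11 lower (55.1% and 6.01% of all), and with both changes 2 higher and 27 lower (22.4% and 24.0%). The median member difference in these 4 fits was 0.92, 0.13, 0.03 and -0.63. Calls were thus few with all arrays, and the split between higher and lower turned with the scaling and with that array. Of the 51, 5 probe sets passed in the same direction in all 4 fits: those of Cdh1 and Pcdh20 were higher in S100a10, and those of Cdh7 (2 of its 3) and Pcdh17 were lower. The share of all kept probe sets that passed in all 4 fits is not given here, so that this count has no background beside it. Among these 5, the probe sets of Cdh1 and Pcdh20 were kept through S100a10 only and 1 of those of Cdh7 through Glt25d2 only, so that 3 of the 5 are among the 8 that had to differ. With both group means at 50 or more, 2 of 43 members were higher and 1 was lower as deposited, the latter a probe set of Cdh7 (adjusted p = 0.0219), so that Pcdh17 no longer passed there.

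**Figure D3:**
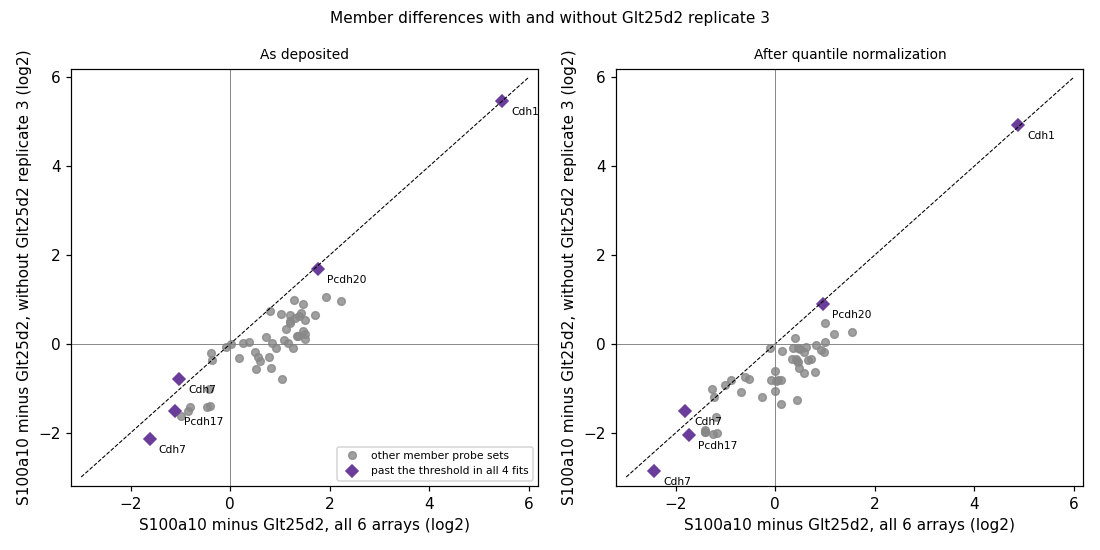
Log2 difference, S100a10 minus Glt25d2, of the 51 kept member probe sets with all 6 arrays (x axis) and without Glt25d2 replicate 3 (y axis), as deposited on the left and after quantile normalization on the right, with the 5 probe sets past the threshold in all 4 fits as diamonds and equal values on the dashed line. Most points lie under the line, and Cdh1 stands at 5.46 as deposited with all arrays.

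Cdh1, the E-cadherin of epithelia, showed the largest difference of all members. It read 12, 12 and 12.2 in Glt25d2 and 436, 686 and 504 in S100a10. All Glt25d2 arrays lay under 50 and all S100a10 arrays far above it, with no overlap. Against the limit of 50 S100a10 was at least 10.7-fold higher, and the log2 difference was 5.46 ± 0.18 (SE, n = 3 per group; limma adjusted p = 1.44e-05), or 4.91 above the median of all kept probe sets. It was 4.88 ± 0.21 after quantile normalization (adjusted p = 3.12e-05) and passed with each of the 6 arrays left out. Cdh3 (P-cadherin), its neighbour in the RefSeq gene order, read at most 26.5 on any array. Markers of meningeal fibroblasts moved with Cdh1: of 14 listed genes 13 were kept, all 13 were higher in S100a10 in all 4 fits, and their summed intensity was 294 to 592 in Glt25d2 and 45900 to 52138 in S100a10. Among those 13, 9 lay under 50 on all Glt25d2 arrays, and no marker read 0. Mural cell markers had 4 higher and 1 lower of 6 kept, of 10 listed, with summed intensities of 744 to 915 and 4390 to 5692. Ependyma and choroid plexus markers had 3 higher of 3 kept, of 5 listed, as deposited and 1 (Rarres2) after quantile normalization, with summed intensities of 109 to 118 and 663 to 999. Of the astrocyte markers 2 of 8 were higher (Gjb6 by 6.26) and 2 lower, and of the 4 kept microglial ones, of 6 listed, 1 was higher (Tmem119 by 5.58). Without Glt25d2 replicate 3, 4 astrocyte markers were higher and 3 lower as deposited, and 2 higher and 3 lower after quantile normalization. The part of any of these cell types in the Cdh1 difference was not tested.

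The other type I cadherins differed less. Cdh2, the N-cadherin of neurons and many other cells, read 1235, 2014 and 137 in Glt25d2 and 1659, 2238 and 1890.5 in S100a10. The groups overlapped, and its difference of 1.46 ± 1.0 (adjusted p = 0.274) was 0.28 ± 0.24 without Glt25d2 replicate 3 (adjusted p = 0.335). Its second probe set, at 165, 175 and 9.74 against 179, 183 and 191, did not overlap between groups and had no call as deposited, with or without that array, and was called lower when the 5 remaining arrays were quantile-normalized (-0.63, adjusted p = 0.00632). Cdh4 (R-cadherin) had probe sets that disagreed. The first read 49.8, 41.3 and 25.0 against 72.5, 89.6 and 113 and was higher in S100a10 (1.28 ± 0.30, adjusted p = 0.0167; at least 1.80-fold against the limit). It did not pass after quantile normalization (0.39, adjusted p = 0.343) or without S100a10 replicate 2 (adjusted p = 0.0566) or 3 (0.0640). The second read 102, 68.9 and 40.9 against 68.5, 105 and 86.9, overlapped between groups and had no call (0.38 ± 0.36). Cdh15 (M-cadherin, known from muscle) read 84.4, 84.4 and 87.0 against 78.5, 80.2 and 81.2, and its difference was -0.09 as deposited, with no call, and -1.01 after quantile normalization, where it was called lower (adjusted p = 0.00235).

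Cdh7, a type II classical cadherin, was lower in S100a10 on 2 of its 3 probe sets. Its brightest probe set read 269, 224 and 410.4 in Glt25d2 and 159, 143 and 126 in S100a10, with no overlap. The difference was -1.04 ± 0.25 (adjusted p = 0.0168), or -1.59 relative to the median of all kept probe sets, and -1.81 ± 0.26 after quantile normalization (adjusted p = 0.00329). This probe set read higher, not lower, in Glt25d2 replicate 3, and without that array the values were -0.79 and -1.52, both past the threshold. As deposited the call was lost without S100a10 replicate 2 (adjusted p = 0.0559) or 3 (0.0661). The second read 162, 192 and 59.9 against 32.4, 51.1 and 38.3 and was lower in S100a10 by 1.62 ± 0.47 (adjusted p = 0.0335). With all values as deposited it passed only with all 6 arrays or without Glt25d2 replicate 3, and leaving out any other array raised the adjusted p to between 0.0659 and 0.117. The third probe set, at 93.9, 98.4 and 141 against 81.9, 82.8 and 86.5, gave -0.38 with no call as deposited and -1.27 after quantile normalization, where it was called lower (adjusted p = 0.00794). All 3 probe sets thus read lower in S100a10 with no overlap between groups, whereas they moved in opposite directions in Glt25d2 replicate 3. A lack of overlap, in either direction, was seen in 25 of the 51 kept members. The share over all kept probe sets is not given here. Cdh19, which lies next to Cdh7 in the RefSeq gene order, read at most 18.8.

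Markers of subcerebral layer 5 neurons (cells that project to the brainstem and spinal cord) were lower in S100a10 too: 5 of 6 as deposited and 6 of 6 after quantile normalization, with summed intensities of 23029 to 28809 in Glt25d2 and 7895 to 9504 in S100a10. Oligodendrocyte markers, 7 kept of 8, had 2 lower as deposited, 3 lower after quantile normalization, 5 lower without Glt25d2 replicate 3 and 7 lower when those 5 arrays were quantile-normalized, with summed intensities of 17810 to 24672 and 9272 to 15796. The part of either cell type in the values of Cdh7, Pcdh17 and the other members that were lower was not tested.

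The other kept type II cadherins were kept through both groups, and all their kept probe sets read lower in Glt25d2 replicate 3. Cdh8 read 615, 542 and 77.8 in Glt25d2 and 811, 789 and 918 in S100a10. All S100a10 arrays were above all Glt25d2 arrays, but the difference of 1.50 ± 0.81 did not pass (adjusted p = 0.178). Without Glt25d2 replicate 3 it was 0.54 ± 0.13 (adjusted p = 0.0122), close to the shift of the median of all probe sets, and after quantile normalization of the 5 arrays it was -0.02. Cdh10 read 1577, 1780.5 and 117 against 1884, 2269 and 1779.6, with overlapping groups and no call (1.51 ± 1.08; 0.23 without that array). Its other kept probe set read 118, 136 and 27.3 against 192, 190.3 and 235, with no overlap, and was called higher without that array as deposited (0.69, adjusted p = 0.00698) and not when the 5 arrays were also quantile-normalized (-0.06). Cdh6 read 224, 190.1 and 46.9 against 302, 279.8 and 353 and had the same course as Cdh8: no call with all arrays (1.30), called higher without Glt25d2 replicate 3 (0.59, adjusted p = 0.0144) and no call when the 5 arrays were also quantile-normalized (-0.11).

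Cdh11, known from mesenchyme as well as from neurons, read 622, 672 and 59.1 in Glt25d2 and 686, 677 and 859 in S100a10. Its difference of 1.34 ± 0.97 had no call, nor had the value of 0.19 without Glt25d2 replicate 3. A dimmer probe set read 139, 146 and 50.9 against 95.8, 120.0 and 130.3 and took the other sign without that array (-0.31), with no call either way as deposited. This dimmer probe set was called lower when the 5 remaining arrays were quantile-normalized (-1.09, adjusted p = 0.00309). Cdh9 read 356, 434 and 41.8 against 205, 301 and 308, and its value of 0.52 with all arrays became -0.56 without Glt25d2 replicate 3 (adjusted p = 0.0584). Cdh22 read 1060.4, 739.7 and 156 against 559, 782 and 879, with no call as deposited. Cdh9 and Cdh22 were called lower only when the 5 remaining arrays were quantile-normalized, at -1.20 and -0.81.

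Cdh13 read 804, 624 and 88.1 in Glt25d2 and 211, 299.7 and 302 in S100a10. The S100a10 arrays lay under Glt25d2 replicates 1 and 2 and above replicate 3, and the difference of -0.40 ± 0.86 had no call (adjusted p = 0.714). Without replicate 3 it was -1.41 ± 0.21 (adjusted p = 0.00138), and -2.01 ± 0.22 with quantile normalization as well (adjusted p = 0.000669). A second probe set, at 656, 592 and 86.1 against 178, 273 and 263, gave -1.41 without that array too. The third read 52.1 on each Glt25d2 array and 41.1, 31.4 and 51.2 in S100a10, close to the limit, and was called lower after quantile normalization only (-1.24). Of the endothelial markers, 5 of 12 were kept, with summed intensities of 467 to 1443 in Glt25d2 and 593 to 734 in S100a10. As deposited 1 was higher and 1 lower in S100a10, and after quantile normalization 0 and 3. Without Glt25d2 replicate 3 the counts were 1 and 3 as deposited and 0 and 3 when those 5 arrays were quantile-normalized. The part of endothelial cells in the Cdh13 values was not tested.

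**Figure D4:**
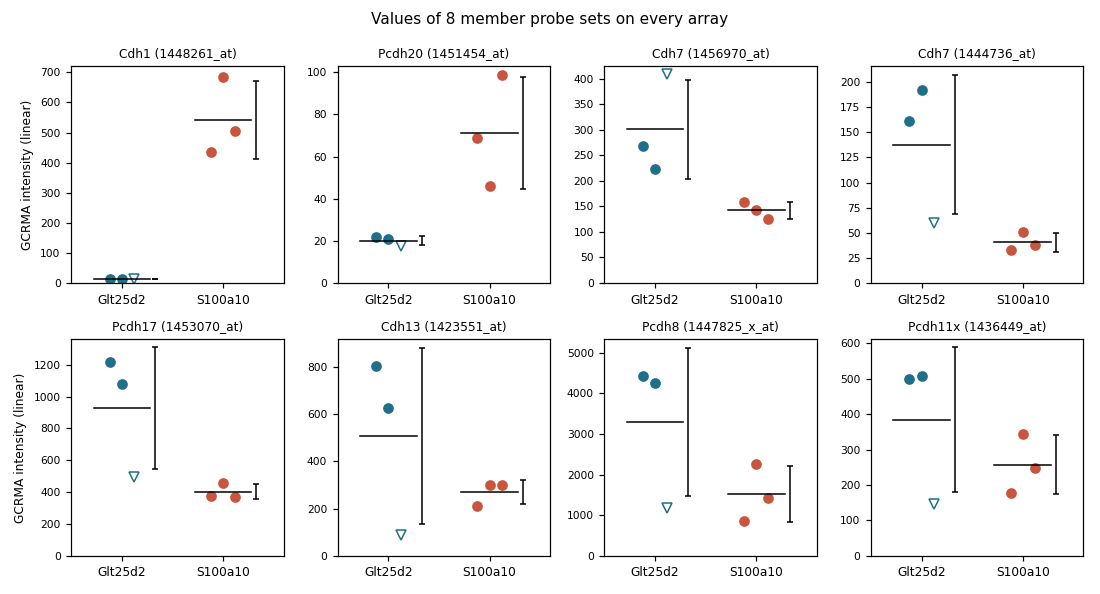
Deposited intensity (linear axes from 0) of 8 member probe sets on each array, with Glt25d2 replicate 3 as an open triangle, group means as lines and the SD (n = 3 per group) as bars. Cdh1 and Pcdh20 are higher on all S100a10 arrays, both Cdh7 probe sets and Pcdh17 are lower on all of them, and for Cdh13, Pcdh8 and Pcdh11x the triangle lies below Glt25d2 replicates 1 and 2 and within or under the S100a10 values.

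Among the delta protocadherins, Pcdh17 was lower in S100a10. A probe set of it read 1215, 1079 and 493 in Glt25d2 and 378, 456 and 371 in S100a10. All S100a10 arrays were lower, and the difference was -1.11 ± 0.36 (adjusted p = 0.0472) as deposited, or -1.67 relative to the median, and -1.73 ± 0.33 after quantile normalization (adjusted p = 0.00984). Without Glt25d2 replicate 3 it was -1.52 ± 0.14 (adjusted p = 0.000215), whereas leaving out any other array raised the adjusted p to between 0.0952 and 0.138. The other probe set, at 1415, 1233 and 363 against 352, 558 and 598, overlapped between groups through that same array and had no call with all arrays (-0.81), and was called lower without it (-1.43, adjusted p = 0.00254). Diaph3, a formin that is the next gene to Pcdh17 in the RefSeq order and belongs to the layer 5 markers above, read 76.0, 60.0 and 76.0 against 17.5, 17.9 and 19.0 and was also lower in S100a10.

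Pcdh8, whose message is known to rise with neuronal activity, read 4431, 4263 and 1185 in Glt25d2 and 868, 2249 and 1432 in S100a10. Both groups were wide, and the difference of -1.0 ± 0.62 had no call (adjusted p = 0.232). Without Glt25d2 replicate 3 it was -1.63 ± 0.36 (adjusted p = 0.00819), and its second probe set gave -1.52 ± 0.32 (adjusted p = 0.00634). Pcdh11x, on the X chromosome, read 499, 507 and 147 against 178, 345 and 249, with no call as deposited (-0.43 ± 0.55) and a call as lower without that array (-1.02 ± 0.26, adjusted p = 0.0147). Its dimmer probe set, at 135, 158 and 92.2 against 114, 209.5 and 139, had no call in any of the 4 fits.

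Other delta protocadherins were not lower in S100a10 as deposited. Pcdh7 read 1105, 1439 and 391 in Glt25d2 and 2209.8, 2029.8 and 2854 in S100a10. The groups did not overlap, and the difference of 1.45 ± 0.50 missed the threshold (adjusted p = 0.0572) but passed without Glt25d2 replicate 3 (0.89 ± 0.19, adjusted p = 0.00739). After quantile normalization it did not pass with all arrays (0.99, adjusted p = 0.137) or without that array (0.47, adjusted p = 0.0859).

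Pcdh10 had 4 kept probe sets that disagreed. The brightest read 1622, 1538 and 389 against 1303, 1360.0 and 1522, with no call as deposited (0.49 ± 0.57). Another read 1759, 1779 and 230 against 1107, 1382 and 1600, also with no call as deposited (0.59 ± 0.83). Both were called lower when the 5 arrays without Glt25d2 replicate 3 were quantile-normalized (-0.61, adjusted p = 0.00989, and -0.82, adjusted p = 0.0118). A further probe set, at 262, 241 and 49.2 against 304, 276 and 383, had no call in any of the 4 fits. The dimmest read 87.3, 65.1 and 65.1 against 104, 149 and 127 and was called higher (0.80 ± 0.19, adjusted p = 0.0166), but not after quantile normalization (-0.11, adjusted p = 0.704). That call was also lost without Glt25d2 replicate 2 (adjusted p = 0.0603) and without S100a10 replicate 2 (0.0505) or 3 (0.0585). Only this probe set of the 4 did not read more than 4-fold lower in Glt25d2 replicate 3.

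Pcdh19, an X-linked gene known for an epilepsy of female carriers, read 1078, 921 and 130.0 against 1007, 991 and 1202. Its difference of 1.07 ± 0.83 had no call and was 0.09 without Glt25d2 replicate 3, so that the groups lay together once that array was left out. Its other 2 kept probe sets had no call in any of the 4 fits. Pcdh9 read 6013, 6529 and 1984 against 6729.8, 7270.5 and 7059, with no call (0.72 ± 0.47; 0.16 without that array). Pcdh18 read 97.5 on each Glt25d2 array and 86.2, 119 and 91.1 in S100a10, so that its difference of 0.01 as deposited became -0.89 after quantile normalization, where it was called lower (adjusted p = 0.0112).

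Pcdh20, a protocadherin counted here outside the delta and clustered groups and next to Pcdh9 in the RefSeq gene order, was higher in S100a10 on 1 of its 2 kept probe sets. This one read 21.7, 20.7 and 17.7 in Glt25d2 and 68.6, 46.2 and 98.7 in S100a10. All Glt25d2 arrays lay under 50, as did 1 S100a10 array, and S100a10 was at least 1.36-fold higher against the limit. The log2 difference was 1.77 ± 0.29 (adjusted p = 0.00404) as deposited, or 1.21 above the median, and 0.96 ± 0.28 after quantile normalization (adjusted p = 0.0394), and the call as deposited held with each of the 6 arrays left out. The other probe set read 103, 147 and 39.9 against 187, 186 and 209. It did not overlap between groups and missed the threshold (1.20 ± 0.48, adjusted p = 0.0865), and it passed without Glt25d2 replicate 3 as deposited (0.66, adjusted p = 0.0173) but not after quantile normalization (-0.10).

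The promoter windows of the 3 genes called in all 4 fits that the sequence table holds are shown to compare their base composition and 1 short motif. They run from 250 bases before to 50 bases after the start of the gene, are taken from RefSeq on GRCm38.p6, and are read 5′ to 3′ on the strand of the gene. Of the 56 member genes 20 had a window in that table (23 windows outside the clustered genes' chromosome). Capitals mark CAGGTG, a 6-base E-box that is the reverse complement of CACCTG and known as a target of zinc finger repressors of E-cadherin, searched on both strands.
Cdh7, chr1:109982650-109982949, + strand: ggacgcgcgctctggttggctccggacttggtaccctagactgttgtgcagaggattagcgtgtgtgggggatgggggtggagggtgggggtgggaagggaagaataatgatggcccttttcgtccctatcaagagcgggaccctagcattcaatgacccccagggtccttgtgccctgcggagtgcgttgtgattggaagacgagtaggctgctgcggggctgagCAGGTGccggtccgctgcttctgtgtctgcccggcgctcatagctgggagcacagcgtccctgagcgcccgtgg
Pcdh17, chr14:84443313-84443612, + strand: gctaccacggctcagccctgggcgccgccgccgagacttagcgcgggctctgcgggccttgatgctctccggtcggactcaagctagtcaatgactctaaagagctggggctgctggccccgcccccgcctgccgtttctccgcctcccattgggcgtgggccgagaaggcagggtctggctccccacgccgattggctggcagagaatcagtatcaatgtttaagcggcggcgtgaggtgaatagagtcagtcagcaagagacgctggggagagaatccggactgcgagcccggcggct
Pcdh20, chr14:88471347-88471646, - strand: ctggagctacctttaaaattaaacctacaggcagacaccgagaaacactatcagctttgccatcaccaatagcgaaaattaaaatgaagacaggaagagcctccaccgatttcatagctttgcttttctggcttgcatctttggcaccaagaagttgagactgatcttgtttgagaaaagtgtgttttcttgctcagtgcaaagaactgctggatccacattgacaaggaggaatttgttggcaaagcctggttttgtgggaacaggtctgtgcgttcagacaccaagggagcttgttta
The window of Pcdh17 holds 26 CpG pairs, the Cdh7 window shown 18 and that of Pcdh20 4, beside a median of 7 over all 32851 windows of this length. The motif stands 24 bases before the start of Cdh7 and is not found in the windows of Pcdh17 and Pcdh20. It occurs in 5 of the 23 member windows (21.7%) and in 20.2% of all windows, so that its share among members is near the background. A match describes the letters only. Cdh7 has 2 more windows, with 19 and 4 CpG pairs and 1 match each, and both are counted in the 5 of 23.

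The clustered protocadherins were represented by Pcdhb genes alone among the kept members, 11 of 22, with 3 of the first 11 and 8 of the last 11 in the order of the cluster. Their sequences are alike, so that a probe set may read a close relative as well, and the names are uncertain to that degree. Pcdhb15 was the only one called as deposited with all arrays. It read 78.9, 70.3 and 35.5 in Glt25d2 and 111, 121 and 125 in S100a10, and its difference of 1.03 ± 0.31 (adjusted p = 0.0393) was 0.13 after quantile normalization (adjusted p = 0.738). Leaving out Glt25d2 replicate 2 (adjusted p = 0.0608) or any 1 S100a10 array (0.0989 to 0.119) also ended the call.

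Pcdhb17 had the largest difference among them, with 172, 197 and 13.6 in Glt25d2 and 294, 321 and 496 in S100a10. The groups did not overlap, yet the difference of 2.22 ± 1.07 did not pass (adjusted p = 0.139), and without Glt25d2 replicate 3 it was 0.97 ± 0.24 (adjusted p = 0.0118). Pcdhb22, at 58.7, 68.3 and 10.1 against 100.2, 162 and 137, and Pcdhb16, at 99.7, 93.8 and 19.8 against 146, 134 and 171, took the same course, with 1.05 and 0.63 without that array. None of these 3 passed when the 5 arrays were also quantile-normalized (0.26, 0.21 and -0.18).

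Other Pcdhb genes went the other way once Glt25d2 replicate 3 was left out. Pcdhb9, whose Glt25d2 values stand above, read 649, 911 and 847 in S100a10, and its difference of 1.05 ± 1.54 with all arrays became -0.79 ± 0.18 (adjusted p = 0.0082). Pcdhb7 read 116, 129.9 and 7.16 against 68.3, 83.4 and 103, and its difference of 0.82 became -0.55 ± 0.19 (adjusted p = 0.0439). Both were also lower when the 5 arrays were quantile-normalized (-1.27 and -1.34). Without that array 5 of the 11 kept probe sets were higher and 2 lower as deposited, beside 0 higher (0 also at an unadjusted p under 0.05 in limma) and 6 lower after quantile normalization. The shares of all kept probe sets without that array were 55.1% and 6.01% as deposited and 22.4% and 24.0% after quantile normalization, so that 5 of 11 higher lies near the background.

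Of the genes that cadherins work with, the catenins and their partners had 5 higher and 1 lower of 9 kept genes in S100a10. Over all 11821 kept genes, 5249 were higher and 532 lower. Vcl (vinculin, which links catenins to actin under tension) read 152, 178 and 189 in Glt25d2 and 855, 1092 and 831 in S100a10, a difference of 2.42 ± 0.16 (adjusted p = 0.000122). Arvcf (1.44) and Ctnna1 (1.13, the alpha-catenin found widely outside neurons) were higher as well, and these 3 also passed after quantile normalization (1.76, 0.74 and 0.92), whereas Jup and Ctnnd1 did not. Ctnna2, the neuronal alpha-catenin, read 3203, 3203 and 3679.6 against 2332, 2437 and 2499 and was lower in all 4 fits (-0.47 ± 0.10 as deposited, adjusted p = 0.0129). Ctnnb1 (beta-catenin) had no call (0.05).

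The median difference of the catenin list was 1.05, beside 0.56 over all genes, and 0.22 beside -0.02 after quantile normalization. Of the other cadherin superfamily genes 1 of 9 was called as deposited with all arrays, Fat4 (25.7, 26.2 and 19.6 against 70.7, 111 and 112). Fat4 was at least 1.92-fold higher against the limit. Without Glt25d2 replicate 3, 4 of the 9 were higher and 1 lower as deposited, and 1 higher and 2 lower after quantile normalization. Among the regulators and effectors of clustered protocadherins 4 of 12 were higher, of which only Nipbl, the cohesin loader, also passed after quantile normalization (1.14 and 0.46). Without Glt25d2 replicate 3, 6 of the 12 were higher as deposited, and 2 higher and 4 lower after quantile normalization. Of the 7 WAVE genes Wasf2 was higher (2.11 ± 0.22, adjusted p = 0.000756) and Nckap1 lower (-0.37 ± 0.11, adjusted p = 0.0316). As deposited, Nckap1 did not pass without Glt25d2 replicate 3 (-0.31, adjusted p = 0.0568). Among proteases that cut cadherins and their regulators, 1 of 4 was called as deposited with all arrays. This was Mmp14, which read 5.87 on each Glt25d2 array and 253, 392 and 286 in S100a10, at least 6.10-fold higher against the limit. Without Glt25d2 replicate 3, 3 of the 4 were higher as deposited, and 1 higher and 1 lower after quantile normalization. The part of the meningeal and mural cells whose markers are given beside Cdh1 in the higher values of Vcl, Fat4, Wasf2 and Mmp14 was not tested.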

How the data were processed

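RNA from 6 TRAP samples was amplified in 2 cycles from 15 ng, labelled with biotin and hybridised to Affymetrix mouse arrays, per the labels' protocols. The deposited intensities are GCRMA values on a linear scale, per the submitters' processing notes; no source used here gives the GCRMA version. The 6 columns of the table were used, although the series text speaks of averaged replicates. Of 45101 probe sets 64 controls were left out. Entrez identifiers of 34741 of the 34945 probe sets naming 1 gene were found in the RefSeq table, and 0 symbols changed.

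S100a10 minus Glt25d2 was fitted on log2 intensities without a pseudocount by the lmFit and eBayes functions of limma 3.58.1, run in R 4.3.3, with 2-sided p-values adjusted by Benjamini-Hochberg over the 21291 probe sets whose mean reached 50 in 1 group or both (threshold 0.05), after the script was tested on simulated data. A gene is represented by its brightest kept probe set (mean log2 of all arrays), and its call is adjusted over all kept probe sets. When all arrays of 1 group read under 50, a bound against 50 is given in place of a fold, for the deposited scaling only, and the fitted difference is no bound. Quantile normalization ran over all 45037 non-control probe sets before the filter. Tables were made in Python 3.11.15 with numpy 2.4.6 and pandas 2.3.3, and plots with matplotlib 3.10.9. In the simulated data, 4 of 50 changes of 1.5-fold, 16 of 50 of 2-fold and 39 of 50 of 4-fold were recovered. A missing call thus does not show equal levels. The number of arrays, 3 per group, limits the precision.

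The members, gene lists, motif, tests and alternatives were chosen with earlier results of these data known, and the lists are therefore no independent evidence. The rule for named genes allows every member gene with a kept probe set. It asks for the value of every array for genes called both as deposited and after quantile normalization, for the 8 largest differences in each direction, for Cdh2, Cdh5, Cdh11, Cdh13, Pcdh10 and Pcdh19, and for genes whose probe sets disagree. There were 5 lists of partners and relatives and 11 lists of cell type markers, and the text gives those beside which members moved. Alternatives were quantile normalization, median centring, quantile normalization without Glt25d2 replicate 3, a pseudocount of 16, values under 50 set to 50, no filter, a mean of all arrays or both group means of at least 50, a trended prior, a block for the replicate number, 1 probe set or the mean of all probe sets per gene, and each array left out.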

Additional observations from a re-analysis of the deposited data

How the results depend on the processing

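With all arrays as deposited, 5 member probe sets were higher and 3 lower in S100a10. The higher and lower counts were 2 and 7 after quantile normalization and after median centring alike, and 2 and 27 after quantile normalization without Glt25d2 replicate 3. With no filter they were 28 and 8 of 101, but 5 and 2 among the 51 kept members. The rest were probe sets left out by the filter, of which 49 of 50 read under 50 on every array. The counts were 2 and 1 of 43 with both means at 50 or more, 2 and 1 of 32 with 1 probe set per gene, and 3 and 1 of 32 with a gene's probe sets averaged. Shares over all probe sets are given above for 4 fits only, and not for the other settings. Setting values under 50 to 50 gave 7 and 1. Leaving out 1 array gave 2 to 15 higher and 0 to 11 lower, with the highest counts without Glt25d2 replicate 3. Without S100a10 replicate 2 limma gave 2 and 0, or 4 and 3 at an unadjusted p under 0.05. The correlations of same-numbered samples' deviations were -0.45, 0.22 and -0.24, and that of Glt25d2 replicate 3 with S100a10 replicate 1 was 0.45. The deviations of the 3 arrays of a group sum to 0, so that the correlations constrain one another. They cannot settle whether the numbers pair the samples. The replicate block gave 2 and 1. A pseudocount of 16, a trended prior and a mean of all arrays at 50 kept each count within 1.5 times. Partners and relatives, 12 higher and 2 lower, gave 7 and 4 after quantile normalization, 7 and 13 after median centring, 19 higher without Glt25d2 replicate 3, and 9 lower with quantile normalization too. The 13 meningeal genes stayed higher in these fits.

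For member genes, a sign was read as a direction where the value passed in at least 1 of both fits compared. Quantile normalization without Glt25d2 replicate 3 turned Cdh4 (-0.80), Cdh9 (-1.20), Cdh22 (-0.81), Pcdh10 (-0.61), Pcdh18 (-0.81), Pcdhb3 (-1.06), Pcdhb7 (-1.34), Pcdhb9 (-1.27), Pcdhb12 (-0.81), Pcdhb15 (-0.16, no call), Pcdhb19 (-0.83) and Pcdhb20 (-0.66). Leaving out that array alone turned Pcdhb7 (-0.55) and Pcdhb9 (-0.79), whose values without 1 array ran from -0.55 to 1.54 and from -0.79 to 2.01. Pcdh18 also turned after quantile normalization (-0.89) and after median centring (-0.76). The cause of these changes was not tested.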

Other observations

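The alpha cluster of protocadherins is read by 6 probe sets that name 9 or 14 Pcdha genes each and so are no members, and 4 of them were kept. The brightest read 2839, 3351 and 544 in Glt25d2 and 2475, 3042 and 3156 in S100a10, and was 5.67-fold lower in Glt25d2 replicate 3 than in replicates 1 and 2. Another read 548, 559 and 70.2 against 776, 818 and 1072, and 1 more 307, 239 and 19.4 against 239, 494 and 369, so that these 3 share the low values of that array. The last read 29.0 on each Glt25d2 array and 58.4, 63.7 and 89.7 in S100a10; it was called higher as deposited (1.26, limma adjusted p = 0.00246) and not after quantile normalization (0.37, adjusted p = 0.174).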
